A study of Mus musculus with 3 samples.

Results

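The 8 genes described here, Ighm, Cd79b, Lyn, Btk, Blnk, Bank1, Plcg2 and Tnfrsf17, are best known from antigen receptor and survival signalling in B lymphocytes, and all 8 were read in microglia of mouse brain. They were taken by symbol from the 32285 genes of the deposited matrices, and they were chosen by their levels across the cell classes of these same libraries. Those levels are therefore given as a description, with no test. In a B cell, surface IgM signals through the Cd79a and Cd79b chains, whose phosphorylation by Src family kinases such as Lyn recruits Syk. The adaptor Blnk then brings Btk and phospholipase C gamma 2 together, which releases calcium, and Bank1 is a scaffold that modulates this step. Microglia, the resident macrophages of the brain, use several of the same enzymes below Fc receptors, Trem2 and integrins.

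The data are 3 libraries in which single cells were sequenced at the 3′ end of their transcripts and molecules were counted by unique molecular identifiers (UMIs). Each library held CD45int CD11b+ cells, sorted from the brains of 4 pooled mice on day 4 after induction. All mice were Apoe knockouts. The groups were sham induction with PBS, NMOSD (neuromyelitis optica spectrum disorder) induction with a control peptide, and NMOSD induction with the peptide APOE130-149, so sham and control peptide libraries differ in both induction and injected agent. The labels name neither the age, sex and strain of the mice nor the way NMOSD was induced. A CD45int gate is meant to take microglia and leave out blood leukocytes, which carry more CD45. With 1 library per group there was no test between groups. Intervals are exact 95% Poisson, conditional or binomial intervals and cover counting error only, not the spread between mice.

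The libraries held 4674, 5306 and 2175 barcodes (sham, control peptide, APOE130-149) and 32712199, 61469677 and 32060750 UMIs. After filters on genes and mitochondrial RNA, 3753, 4418 and 1752 cells passed a gate on 10 microglia markers with Igkc under 0.3% of their UMIs. Those markers, which include P2ry12, Tmem119 and Cx3cr1, made up a median of 2.46%, 2.59% and 2.68% of a gated cell's UMIs. Between 62 and 109 cells per library lay near the marker cutoff. In sham 58 cells lay near the Igkc cutoff, against 2 and 1 in the other libraries. Apoe, the gene targeted in these mice, was still counted at 81.7, 117 and 127 CPM (UMIs per 1000000 UMIs of the pooled cells) in microglia. A 3′ tag need not lie in the deleted part, so this does not check the genotype. The 3 libraries shared 9, 0 and 3 cell barcodes pairwise.

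The class meant to hold B lineage cells, with Igkc at 0.3% of UMIs or more, did not match that label in sham. Its 82 sham barcodes carried the microglia markers at 88.2% of the level of gated microglia, with a median of only 1632.5 UMIs against 7414. They held Igkc at 29317 CPM, Igha at 15616 CPM and Jchain at 2747 CPM, all genes of antibody-secreting plasma cells, but 1 Cd79a UMI in all and none of the B cell markers Ms4a1 and Pax5. They are called Igkc-rich barcodes below. The control peptide library had 3 such barcodes and the APOE130-149 library 2. As a closer reference for B cells, 5 barcodes with at least 0.3% of UMIs in B lineage markers and few microglia markers were pooled, 3 from the control peptide library and 2 from the APOE130-149 library.

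The receptor chains were read in microglia of every library. Ighm, the constant region of the IgM heavy chain (chromosome 12, 113418558 to 113422730, minus strand, GRCm38), stood at 250.2 CPM in sham, 237 CPM with the control peptide and 273 CPM with APOE130-149. Cd79b, the signalling chain also called Ig-beta (chromosome 11, 106311341 to 106314762, minus strand), stood at 44.9, 46.7 and 43.8 CPM in the same order. In the 5 B cell marker-rich barcodes Ighm was at 5475 CPM (4726 to 6309) and Cd79b at 2866 CPM (2332 to 3486), far above microglia. The partner chain Cd79a was at 3096 CPM in those 5 barcodes but at only 2, 3 and 6 UMIs in all gated microglia of the 3 libraries. Microglia thus held Cd79b RNA almost without Cd79a RNA, at 668, 811 and 196 Cd79b UMIs per Cd79a UMI, against 0.806 and 1.12 in the B cell marker-rich barcodes, which Cd79a helped to pick.

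The ratio of Ighm to the kappa light chain gene Igkc also differed between microglia and the pools rich in Igkc or B cell markers. Gated microglia held 7438 Ighm and 787 Igkc UMIs in sham, 12344 and 4 with the control peptide, and 7321 and 6 with APOE130-149. Per Igkc UMI that is 9.45 Ighm UMIs (8.78 to 10.2) in sham, 3086 (1205 to 11328) in the control peptide library and 1220 (560.3 to 3326) in the APOE130-149 library. The Igkc-rich sham barcodes had 0.00841 Ighm UMIs per Igkc UMI, and the B cell marker-rich barcodes 0.585 and 0.750. The gate limits Igkc in microglia and the other pools were picked for Igkc or B cell markers, so the direction of this difference was fixed by the choice of cells. The 3187 sham microglia with no Igkc UMI had Ighm at 249.7 CPM, against 253 CPM in the 566 with at least 1.

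**Figure D1:**
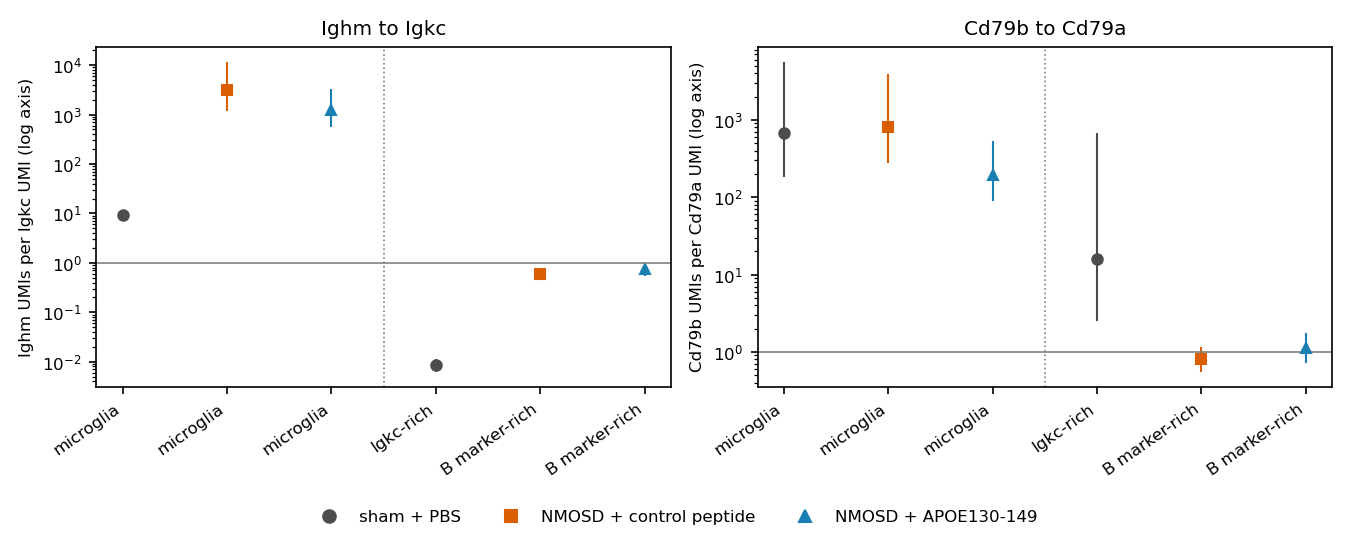
Ighm UMIs per Igkc UMI (left) and Cd79b UMIs per Cd79a UMI (right) on log axes, in gated microglia, in the Igkc-rich barcodes of sham and in the B cell marker-rich barcodes of both NMOSD libraries. Points are 1 library each, coloured by group, and bars are exact 95% conditional intervals. Ighm per Igkc was at 9.45 or above in microglia and at 0.750 or below in the other pools.

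Among the other immunoglobulin genes, those of plasma cells were read mostly in sham microglia. Igha was at 590 UMIs in sham microglia and 0 in both other libraries, which allows up to 0.0576 and 0.112 CPM. Igha and Igkc stood in a ratio of 0.750 in sham microglia and 0.533 in the Igkc-rich barcodes, and Jchain and Igkc at 0.121 and 0.0937. Ighd, the IgD heavy chain gene next to Ighm, was low but present in microglia of all libraries, at 13.3, 10.9 and 10.1 CPM. Ighg2b was at 14, 27 and 13 UMIs. Segments of the heavy chain variable region gave 5, 0 and 0 UMIs in microglia beside 8437, 12938 and 7606 UMIs of heavy chain constant genes. Reads from 3′ ends rarely reach these segments, and the Igkc-rich sham barcodes had 13 beside 3220, or 0.404 per 100. Of those 3220 UMIs 3166 were Igha, while Ighm made up most of the microglial ones, so the rates are of different transcripts. The Igkc-rich barcodes of the control peptide and APOE130-149 libraries had 2 beside 93 and 0 beside 47. The counts of 0 in microglia of the NMOSD libraries allow up to 0.0232 and 0.0394 per 100.

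Among the kinases, Lyn, a Src family kinase, was at 627, 575 and 614 CPM in microglia (chromosome 4, 3678115 to 3813122, plus strand). Btk, the Tec family kinase that activates phospholipase C gamma 2 (chromosome X, 134542336 to 134583570, minus strand), was at 73.2, 63.1 and 68.0 CPM. Neither was particular to microglia among the sorted cells. Monocytes held Lyn at 501, 400.3 and 353 CPM and Btk at 66.1, 53.9 and 38.9 CPM. For Btk the monocyte and microglial levels did not differ beyond the interval of their ratio in sham (1.11-fold, 0.722 to 1.79) or with the control peptide (1.17-fold, 0.831 to 1.70). In neutrophils Lyn was 2.92-fold to 3.84-fold and Btk 1.78-fold to 2.67-fold lower than in microglia. For Lyn the order was microglia, monocytes, neutrophils in all 3 libraries. Border-associated macrophages, at 333, 349 and 189 CPM, came between monocytes and neutrophils in sham and with the control peptide. With APOE130-149 their interval overlapped that of neutrophils (210.4 CPM), and with the control peptide that of monocytes.

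The adaptor Blnk, also called SLP-65 or BASH (chromosome 19, 40928927 to 40994535, minus strand), separated microglia from blood myeloid cells. It was at 206, 184 and 190.2 CPM in microglia. In monocytes it gave 3, 6 and 1 UMIs, or 9.45, 9.80 and 2.99 CPM, and in neutrophils 0, 8 and 3 UMIs. Border-associated macrophages, the macrophages of brain perivascular spaces and meninges, held it at 162 CPM in sham, 49.9 CPM with the control peptide and 120.1 CPM with APOE130-149. The ratio of microglia to these macrophages was 1.27 (0.900 to 1.86) in sham and 1.58 (0.943 to 2.90) with APOE130-149, and 3.69 (1.69 to 10.05) with the control peptide, from 6 UMIs. Plcg2, phospholipase C gamma 2 (chromosome 8, 117498291 to 117635142, plus strand), was higher in monocytes than in microglia in every library. It was at 85.0, 82.3 and 86.5 CPM in microglia and at 151, 106 and 119.6 CPM in monocytes, and in sham its ratio of microglia to monocytes was 0.562 (0.423 to 0.765). With the control peptide and APOE130-149 the interval of the monocyte level held the microglial level. In neutrophils Plcg2 was at 72.3, 61.5 and 99.1 CPM.

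The scaffold Bank1 (chromosome 3, 136053363 to 136326066, minus strand) and Tnfrsf17 were both read in microglia and nearly missing in monocytes. Tnfrsf17 encodes BCMA, the receptor through which the cytokines BAFF and APRIL keep plasma cells alive (chromosome 16, 11313812 to 11320074, plus strand). Bank1 was at 37.0 CPM in sham, 33.2 CPM with the control peptide and 29.4 CPM with APOE130-149, and Tnfrsf17 at 33.6, 39.4 and 39.1 CPM. Monocytes gave 0, 1 and 0 UMIs of Bank1 and none of Tnfrsf17 in any library, which puts Tnfrsf17 at least 3.56-fold, 8.03-fold and 4.36-fold lower than in microglia (3 counts per library as the limit). Bank1 was higher in border-associated macrophages than in microglia, at 60.6, 99.7 and 51.5 CPM from 12, 12 and 6 UMIs. The interval of the ratio left out equality only with the control peptide, where the microglial level was 0.333 of theirs (0.190 to 0.646). Tnfrsf17 was at 64.1 CPM in the Igkc-rich sham barcodes, from 13 UMIs. In the B cell marker-rich barcodes Bank1 gave 12 UMIs, all in the APOE130-149 library, and Tnfrsf17 none.

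**Figure D2:**
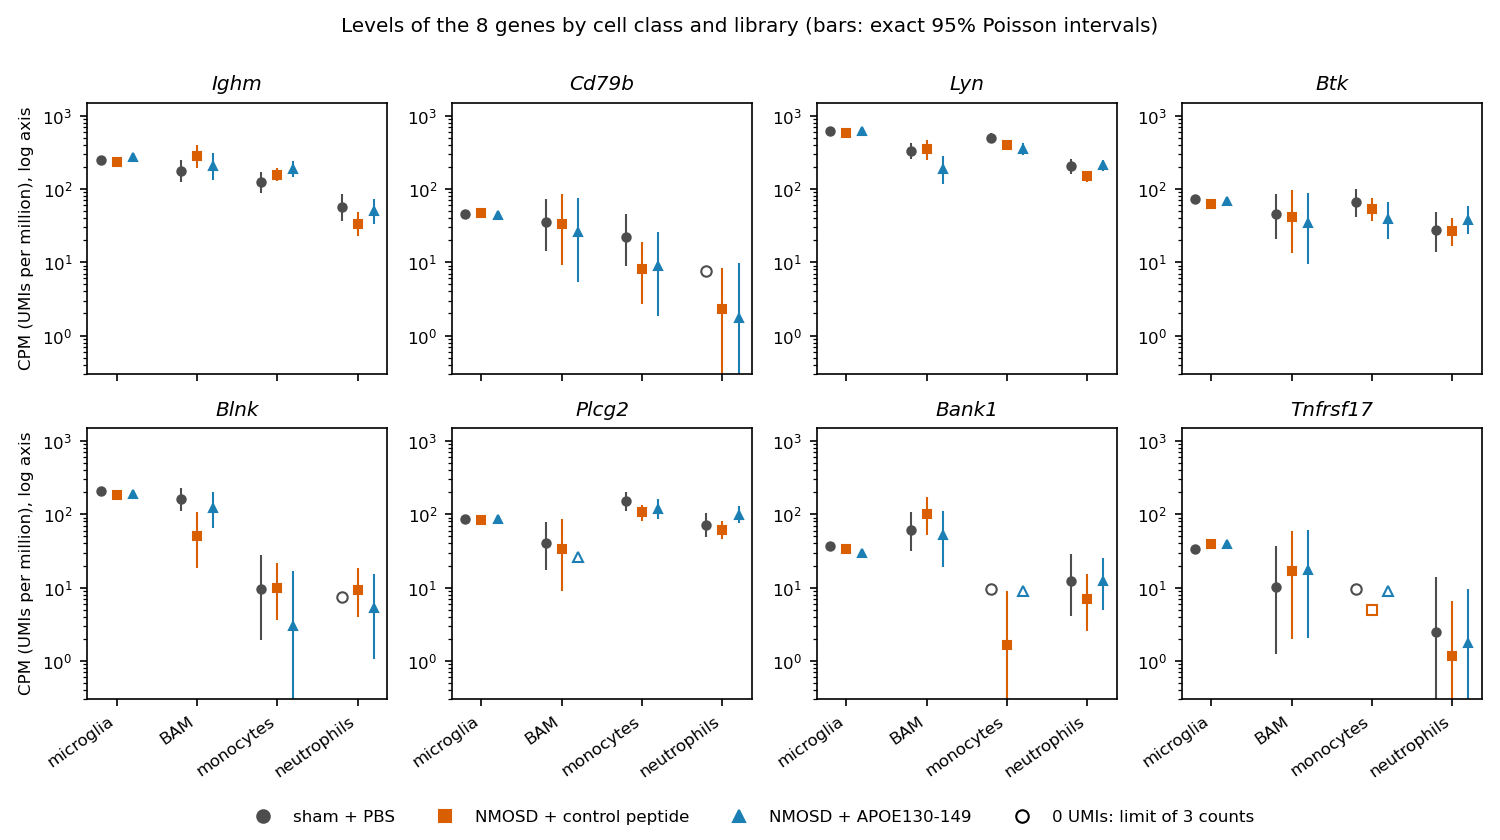
CPM of each gene on a log axis in gated microglia, border-associated macrophages (BAM), monocytes and neutrophils, 1 point per library with exact 95% Poisson intervals, and open symbols at the limit of 3 counts where no UMI was counted. Bars that reach the lower edge are cut there. Microglial levels lie close together in the 3 libraries, Blnk, Bank1 and Tnfrsf17 drop in monocytes, and Plcg2 does not.

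RNA of microglia also appeared in the other classes, which bears on these levels. In neutrophils the 10 microglia markers stood at 1.47% to 5.47% of their microglial level. Blnk stood at 0%, 5.05% and 2.74% there, Cd79b at 0%, 4.97% and 3.97%, and Tnfrsf17 at 7.41%, 2.95% and 4.44% from 1 UMI in each library. Whether the UMIs of those 3 genes came from microglial RNA was not tested. Ighm in neutrophils was above the marker range in every library, at 22.9%, 14.2% and 18.5% (lowest bound 9.50%). Lyn was at 26.0% to 34.3%, Btk at 37.5% to 56.3% and Plcg2 at 74.7% to 115%. Bank1, from 5 to 7 UMIs, was at 21.0% to 41.3%. In 24 choroid plexus cells of the control peptide library Ighm gave 0 of 321936 UMIs, at least 25.4-fold below microglia (3 counts as the limit). The markers stood at 2.93% to 9.68% there, but 62 of the 70 P2ry12 UMIs came from 1 of these cells.

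**Figure D3:**
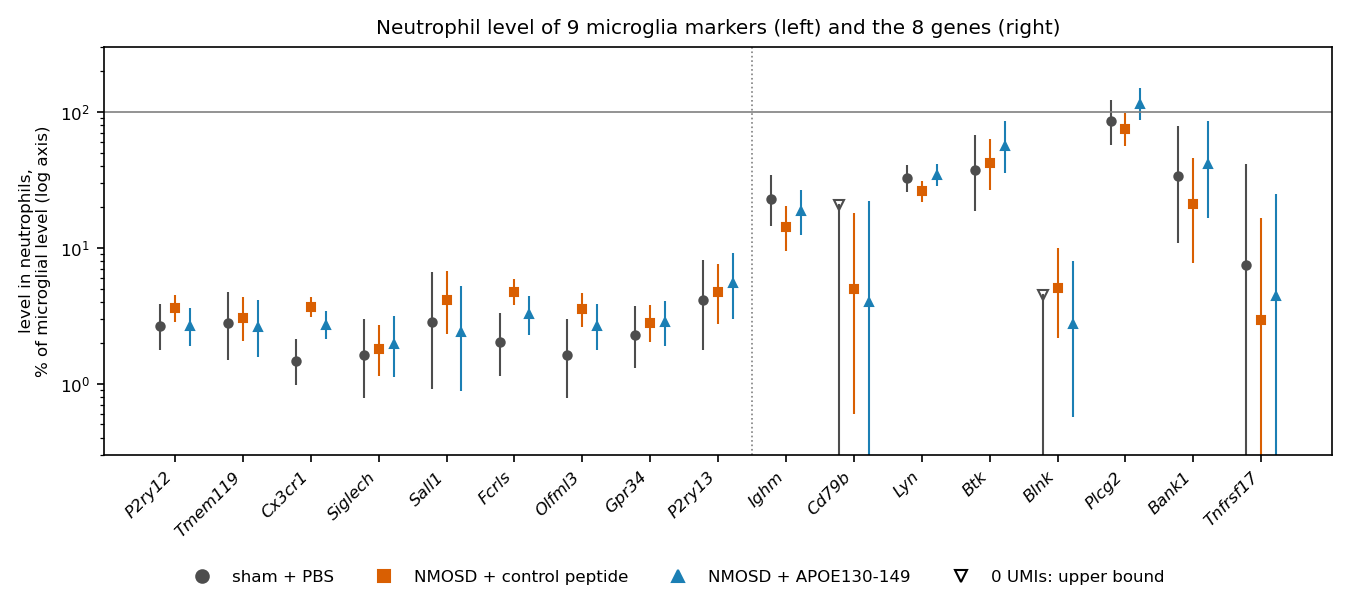
Level in neutrophils as a percentage of the level in microglia of the same library, on a log axis, for 9 of the 10 microglia markers (left of the dotted line) and the 8 genes (right), with exact 95% conditional intervals and open triangles at the upper bound where no UMI was counted. The markers lie between 1.47% and 5.47%, and Ighm, Lyn, Btk, Plcg2 and Bank1 lie above them.

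Counted by a 1.5-fold rule, 7 of the 8 genes were higher in microglia than in neutrophils in every library, all but Plcg2. Of 8576 genes with at least 10 CPM in a pool compared, 54.9% met the same rule, and 10 neutrophil markers alone took 38.4% to 40.5% of neutrophil UMIs, so most genes met this rule. Against monocytes 4 of 8 (Bank1, Tnfrsf17, Cd79b and Blnk) were higher, with a background of 27.8%. Against border-associated macrophages 4 of 8 (Tnfrsf17, Btk, Plcg2 and Lyn) were higher in every library, with a background of 12.2%, and Bank1 was lower, with a background of 6.41%. Ighm and Cd79b did not pass. In those macrophages Ighm was at 177, 283 and 206 CPM, and Cd79b at 35.4, 33.2 and 25.7 CPM from 7, 4 and 3 UMIs. For Btk and Tnfrsf17 the interval in those macrophages held the microglial level in every library, so these calls lay within counting error. For Btk it was 20.8 to 86.3, 13.5 to 97.0 and 9.35 to 87.8 CPM, against 73.2, 63.1 and 68.0 CPM in microglia. For Plcg2 it held that level only with the control peptide, and for Lyn in no library. That comparison rests on 23, 21 and 19 cells, on 9, 5 and 4 Btk UMIs and on 2 Tnfrsf17 UMIs in each library. It also rests on the upper limit set for microglia markers in those macrophages. Without that limit the pools grew to 73, 115 and 58 cells, the microglia markers in them rose to 57.6%, 80.5% and 71.5% of the microglial level, and 0 of 8 passed. In sham, Tnfrsf17 and Cd79b were at least 1.5-fold lower in microglia than in the Igkc-rich barcodes, 2 of 8 with a background of 14.2%, from 13 and 16 UMIs. Several settings moved that count.

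The 8 genes were spread over the microglia. The 0.25% of microglia with most UMIs of a gene held 2.00% to 5.55% of its UMIs. When each cell was thinned to 3000 UMIs, which left out 879, 303 and 151 shallower microglia, at least 1 Ighm UMI was found in 49.3%, 47.1% and 54.9% of cells. Before thinning the shares were 69.8%, 76.4% and 83.5%. The thinned shares were 83.1%, 80.5% and 82.8% for Lyn and 45.3%, 41.9% and 41.8% for Blnk. They lay between 16.5% and 23.1% for Btk and Plcg2 and between 8.37% and 13.4% for Cd79b, Bank1 and Tnfrsf17. Cd79a was found in 0.0348% to 0.0625% of microglia. Igkc was found in 5.25% of sham microglia and in none of the 4115 and 1601 thinned microglia of the NMOSD libraries. At the same depth Ighm was found in 52.6%, 64.3% and 38.5% of 19, 14 and 13 border-associated macrophages. It was found in 26.7% to 40.9% of monocytes, in 12.3% to 16.7% of neutrophils and in none of 19 choroid plexus cells. A thinned microglial cell showed a mean of 2.43 to 2.53 of the 8 genes. The mean was 2.21, 1.93 and 1.54 in border-associated macrophages, 1.64, 1.33 and 1.32 in monocytes, and 0.708 to 1.05 in neutrophils. The 10 neutrophil markers took 38.4% to 40.5% of neutrophil UMIs, which leaves fewer for other genes at this depth.

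Between libraries, the question was whether NMOSD induction or the peptide went with a change of these genes in microglia. None of the 8 was 1.5-fold apart in any comparison. Over all genes the same rule was met by 2.54% (control peptide against sham), 0.513% (APOE130-149 against control peptide) and 2.72% (APOE130-149 against sham), so 0 of 8 is near the background. The 3 comparisons share libraries. With the control peptide against sham, the median log2 ratio of the 8 was -0.10, against -0.07 over 8491 genes. Tnfrsf17 was highest, at 1.17 times sham (1.08 to 1.26), and Btk lowest, at 0.862 (0.816 to 0.910). With APOE130-149 against the control peptide, the median was 0.06 against 0.01 over 8377 genes, with Ighm highest at 1.15 (1.12 to 1.19) and Bank1 lowest at 0.886 (0.814 to 0.965). Bank1 was also lowest for APOE130-149 against sham, at 0.796 (0.726 to 0.873). These ratios leave out 1 by counting error alone, and whether they exceed the spread between mice could not be measured.

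**Figure D4:**
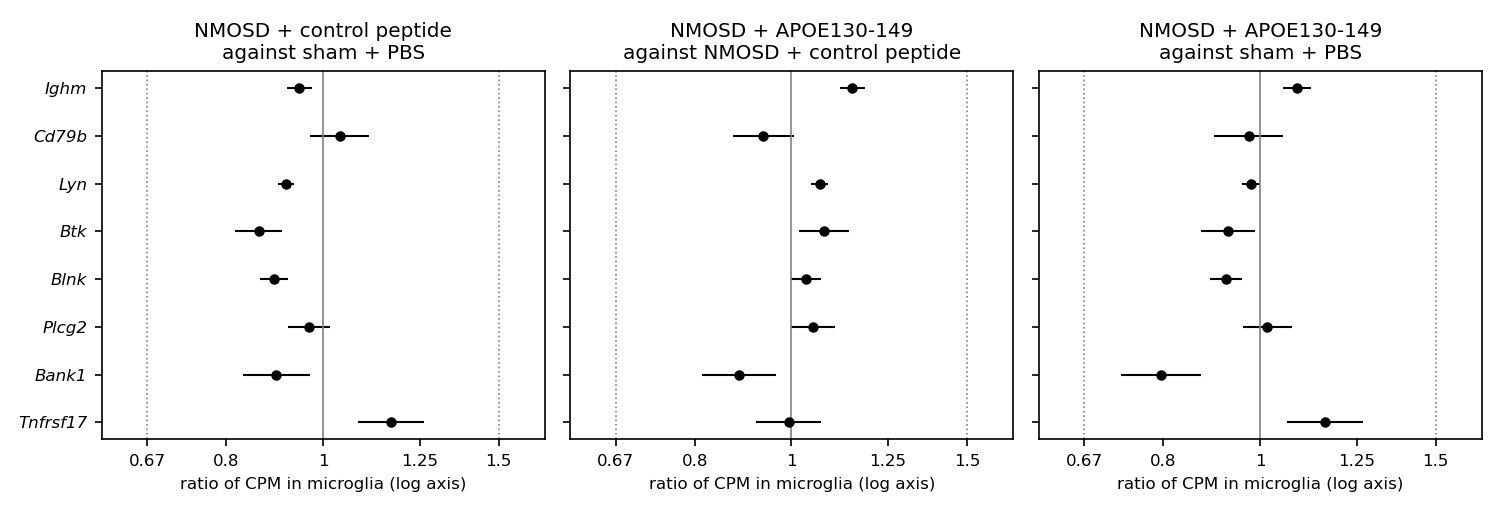
Ratio of CPM in gated microglia between libraries, on a log axis, for the 8 genes and the 3 comparisons, with exact 95% conditional intervals, a solid line at 1 and dotted lines at 1.5-fold in each direction. All points lie between 0.796 and 1.17, inside the dotted lines.

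Within each library, Bank1 and Tnfrsf17 differed most among the 8 between microglia high and low in homeostatic genes or in genes of lipid handling. The 10% of microglia with the highest share of UMIs in 6 homeostatic genes (P2ry12, Tmem119, Siglech, Gpr34, P2ry13 and Olfml3, all 6 also used in the gate) were set against the other cells of the library. The rest had medians of 7526, 8151.5 and 10494 UMIs in sham, control peptide and APOE130-149. The cells highest in homeostatic genes were shallower, at 6490.5, 6208 and 8086.5 UMIs. Bank1 was at 75.6 CPM in them against 33.8 CPM in the rest in sham, at 78.5 against 30.6 CPM with the control peptide and at 70.9 against 27.0 CPM with APOE130-149. The ratios were 2.24 (1.89 to 2.64), 2.57 (2.22 to 2.96) and 2.62 (2.11 to 3.23). Tnfrsf17 was higher by ratios of 1.69, 1.66 and 1.58. These were the only members that passed 1.5-fold in every library, 2 of 8, where 0.522% of 8244 genes passed. Lyn was slightly higher, by 1.11 to 1.18 times, and Ighm, Cd79b, Btk, Plcg2 and Blnk stayed between 0.881 and 1.20.

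The reverse held in microglia highest in 8 genes of lipid handling and growth (Spp1, Lpl, Igf1, Fabp5, Cst7, Itgax, Axl and Apoc1), a set raised in activated and developing microglia. Bank1 was at 13.3 CPM in those cells against 39.2 CPM in the rest in sham, at 12.1 against 36.8 CPM with the control peptide and at 15.02 against 32.1 CPM with APOE130-149. Its ratios were 0.339, 0.329 and 0.468, and those of Tnfrsf17 were 0.535, 0.481 and 0.554. Again 2 of 8 passed 1.5-fold in every library, where 4.4% of 8279 genes were as much lower. Blnk (0.678 to 0.795), Lyn (0.781 to 0.810) and Btk (0.736 to 0.852) were lower by less in all 3 libraries, and Plcg2 stayed at 0.886 to 0.933. Cd79b was at 0.990 in sham but at 0.7002 (0.613 to 0.797) and 0.696 (0.576 to 0.835) in the control peptide and APOE130-149 libraries. Depth moved with this split, since the cells highest in lipid handling had a median of 1940 UMIs in sham against 7533 in the rest, but 11832.5 against 7710.5 and 17343 against 9747 in the NMOSD libraries. Among microglia with at least 3000 UMIs the ratios were 0.426, 0.347 and 0.475 for Bank1 and 0.612, 0.5001 and 0.572 for Tnfrsf17.

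Other states showed a part of this pattern. In the microglia highest in 6 chemokine and cytokine genes such as Ccl3, Ccl4 and Il1b, Bank1 was at 0.448, 0.523 and 0.674 of the level in the rest, while Tnfrsf17 stood at 0.838 to 0.878. In those highest in 9 interferon-induced genes Bank1 stood at 0.511, 0.829 and 0.570 and Tnfrsf17 at 0.851, 0.737 and 0.6699. In those highest in 8 proliferation genes Bank1 (0.694 to 0.783), Tnfrsf17 (0.653 to 0.818), Blnk (0.758 to 0.854) and Lyn (0.783 to 0.872) stood below the rest. For 10 immediate early genes Bank1 was at 0.640, 0.932 and 1.18, Plcg2 at 0.826, 0.769 and 0.996 and Btk at 0.995, 1.11 and 1.28, while Tnfrsf17 stayed at 0.938 to 1.06. For 4 MHC class II genes Bank1 was at 0.595, 0.717 and 0.891 and Tnfrsf17 at 1.07, 0.786 and 0.879. Depth moved with this split too. The cells highest in MHC class II genes had a median of 1553 UMIs in sham against 7587 in the rest. In the NMOSD libraries the medians were 10514.5 against 7746.5 and 11201.5 against 9877. Bank1 and Tnfrsf17 thus did not go together in every split, nor between libraries. Ighm stayed between 0.849 and 1.18 in these splits, and was at 0.968, 0.891 and 0.701 for lipid handling.

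**Figure D5:**
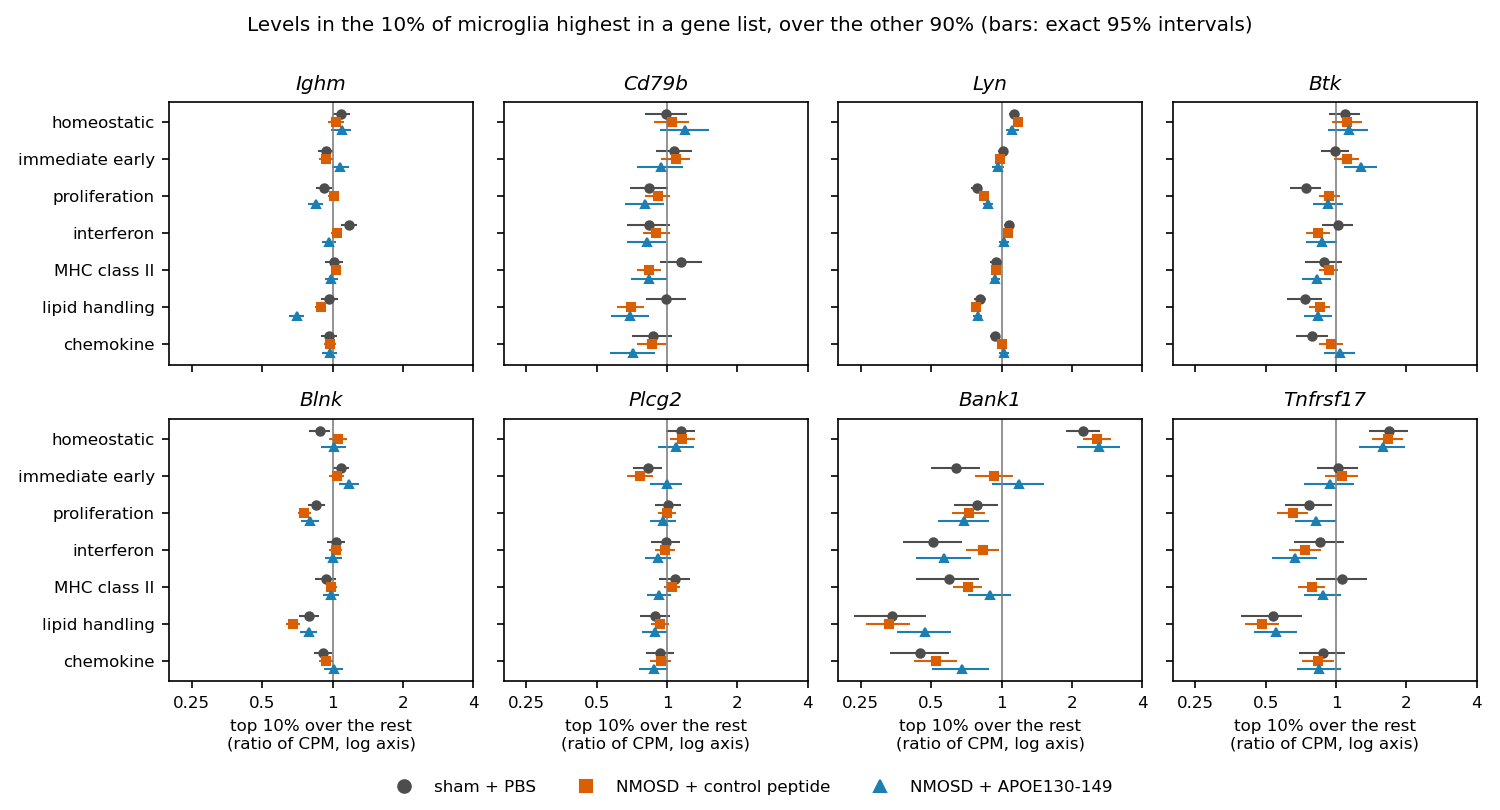
Ratio of CPM between the 10% of microglia with the highest share of UMIs in a gene list and the other 90% of the same library, on a log axis, for 7 lists and the 8 genes, with exact 95% conditional intervals and 1 point per library. Bank1 and Tnfrsf17 lie above 1.5 for the homeostatic list and below 1 for lipid handling, and Ighm and Plcg2 stay between 0.701 and 1.18 for all 7 lists.

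Bank1 and Tnfrsf17 were the members past 1.5-fold in both the homeostatic and the lipid handling split, and their promoters are shown for that reason, each from 250 bases before to 50 after the start site, 5′ to 3′ on the gene's strand (RefSeq sequence, GRCm38.p6). Such promoters were in the table for 5 of the 8 genes. They lie at chr3:136326017-136326316 on the minus strand and chr16:11313559-11313858 on the plus strand. Capitals mark matches, on either strand, to an ETS-IRF composite motif (GGAA, any 2 bases, GAAA) in Bank1 and to the PU.1 core GAGGAA in Tnfrsf17.
Bank1: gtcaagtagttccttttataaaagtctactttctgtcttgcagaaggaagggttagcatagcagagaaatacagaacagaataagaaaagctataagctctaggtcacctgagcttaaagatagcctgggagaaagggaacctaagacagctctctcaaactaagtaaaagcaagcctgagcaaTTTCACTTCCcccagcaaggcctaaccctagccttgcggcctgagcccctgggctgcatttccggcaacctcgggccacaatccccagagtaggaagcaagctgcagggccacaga
Tnfrsf17: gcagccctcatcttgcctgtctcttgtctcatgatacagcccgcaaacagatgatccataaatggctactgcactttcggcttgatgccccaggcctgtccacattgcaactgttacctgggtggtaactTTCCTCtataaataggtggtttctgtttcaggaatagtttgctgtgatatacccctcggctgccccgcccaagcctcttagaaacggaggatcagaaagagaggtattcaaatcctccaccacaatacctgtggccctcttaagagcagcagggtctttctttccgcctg
The composite motif was found in 2.72% and the PU.1 core in 28.3% of 32851 promoters of this length. The octamer ATTTGCAT, found in 1.74%, was in neither, and of the 5 promoters only that of Blnk held it. The promoter of Btk also held the PU.1 core. A match is a description of these letters and not a bound site.

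Most other genes of the pathway were present in microglia too. Over all 32285 genes, 8366, 8233 and 8281 were at 10 CPM or more in microglia of sham, control peptide and APOE130-149. These are the background for this list and those that follow. Of 39 genes of antigen receptor signalling, 30 were at that level in every library. Outside the members they were led by Cd81 (2926, 3067 and 2977 CPM), a tetraspanin of the B cell coreceptor, and Ptprc, the phosphatase CD45 (530.5, 429 and 412 CPM). Syk, the kinase that follows Lyn, was at 113, 92.9 and 104 CPM. The median log2 ratio of the list was -0.16, 0.05 and -0.04 in the 3 comparisons, against -0.07, 0.01 and -0.05 over all genes. Of the 30 or 31 at 10 CPM or more in a library compared, 1 was 1.5-fold apart, Igkc, at 26.5 CPM in sham microglia and 0.0768 and 0.224 CPM in the others. Of 19 inhibitors 14 were at 10 CPM or more and none of these was 1.5-fold apart, with the lipid phosphatase Inpp5d at 521, 477 and 499 CPM, the Fc receptor Fcgr2b at 388, 343 and 369 CPM and the phosphatase Ptpn6 at 233, 259.7 and 272 CPM.

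The genes of the BAFF and APRIL family were present in microglia, apart from Tnfrsf13c. Of 10 genes 9 were at 10 CPM or more and none of these was 1.5-fold apart, while Tnfrsf13c, the BAFF receptor of B cells, gave 0, 3 and 0 UMIs. Tnfrsf13b, the receptor TACI, was at 95.4, 93.6 and 88.9 CPM, the adaptor Traf5 at 43.2, 43.0 and 39.8 CPM and the kinase Map3k14 at 35.8, 33.8 and 33.5 CPM. The ligand genes Tnfsf13b and Tnfsf13 were at 27.4, 28.1 and 23.0 CPM and at 12.95, 16.2 and 14.98 CPM.

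Genes restricted to B lymphocytes were mostly missing. Of 26 such genes in the matrices, which include Igkc, 3 were at 10 CPM or more in every library, Cd72 (64.3, 59.6 and 52.6 CPM), Cd22 (19.8, 17.9 and 19.6 CPM) and Ighd. Blk, Rag1 and Rag2 gave no UMI in microglia, and Ms4a1, Pax5 and Pou2af1 gave 0 to 3 UMIs in each library. A list of 25 transcription factors held mostly factors that B and myeloid cells share, and also Pax5 and Ebf1, which specify the B lineage and were low. Of the 25, 20 were at 10 CPM or more and none of these was 1.5-fold apart. The highest were Mef2c (1049, 1045 and 1045 CPM), Mef2a (836, 749.7 and 703 CPM) and Pou2f2 (831, 776 and 843 CPM), the octamer-binding factor Oct-2. Of 17 receptors, adaptors and kinases that use the same enzymes in myeloid cells 16 were at 10 CPM or more and none of these was apart, led by Csf1r, Tyrobp and Trem2.

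Likeness of pattern was measured as Pearson's r of log2(CPM + 1) over 9 pools, the class and library combinations with at least 20 cells among microglia, border-associated macrophages, neutrophils and Igkc-rich barcodes, against 7707 genes. The pools share libraries, so r is a description. The closest genes were Nudt14 for Blnk (r = 0.998), Tbc1d5 for Ighm (0.996), Ppib for Cd79b (0.996), Derl2 for Tnfrsf17 (0.994), Apbb2 for Lyn (0.993), Wdr36 for Bank1 (0.988), Med12l for Btk (0.982) and Cass4 for Plcg2 (0.965). The next were Atp6ap1 for Blnk (0.991), Tgfbr2 for Ighm (0.994), Rpn2 for Cd79b (0.995), Fbxl19 for Tnfrsf17 (0.994), Ociad1 for Lyn (0.991), Ensa for Bank1 (0.979), Usp21 for Btk (0.978) and Map3k3 for Plcg2 (0.947). With so few pools many genes reach such values.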

How the data were processed

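CD45int CD11b+ cells of mouse brain were profiled in 3 libraries, 1 per group, and the deposited matrices give raw UMI counts for each barcode and gene, not normalized. Per the file headers the counts came from cellranger 7.0.1, while the submitters' processing notes name Cell Ranger 5.0.1, Seurat 4.3.0 and mm10. No label states whether introns or strand entered the counts, and introns would raise long genes such as Bank1.

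Barcodes under 500 genes or over 10% mitochondrial UMIs were removed, a loss of 9.48%, 5.56% and 6.90%. Doublets were kept. Classes were gated on marker shares of UMIs, with cutoffs set after the shares were seen: microglia had at least 1% microglia markers, under 0.2% border-associated macrophage, 1% neutrophil, 0.3% monocyte, 1% choroid plexus and 0.1% T cell markers, and Igkc under 0.3%. Border-associated macrophages had at least 0.2% of their markers and under 1% of microglia markers, and neutrophils at least 8% of theirs. UMIs were summed per class and library and given as CPM. In microglia 29724232, 52098922 and 26841507 UMIs were summed, and a count of 0 allows 3 counts, or 0.101, 0.0576 and 0.112 CPM. No test was run. Intervals are exact (Poisson, Clopper-Pearson), a difference counts from 1.5-fold, and all genes with at least 10 CPM in a pool compared form the background. The ratio code was tested on simulated data. Python 3.11.15, numpy 2.4.6, scipy 1.17.1, pandas 2.3.3, scanpy 1.11.5, leidenalg 0.10.2 and matplotlib 3.10.9 were used. Positions are from GENCODE (GRCm38), where 32158 of 32285 identifiers matched.

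The members and gene lists were chosen with earlier results of these data known. Named genes are the 8 members, the 3 highest of each list, those 1.5-fold apart and, for each member, the 2 most alike. Other genes were named after their values were seen. Some marker genes are not reported here. Alternatives covered cell filters, gates, Igkc cutoffs, cells with many UMIs, means over cells, size factors, clusters, fold and level cutoffs.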

Additional observations from a re-analysis of the deposited data

How the results depend on the processing

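The 24 microglial levels were recomputed under 12 alternatives, and 257 of 288 values lay within the 95% interval of the reported one. They ran from 0.941 to 1.18 times it, with both extremes under the mean over cells of each cell's CPM. Under that mean only 12 of 24 levels lay within the interval. Without cells above 2 times the median UMIs of their library it was also 12 of 24, with values up to 1.16 times the reported one. All 8 genes stayed at 10 CPM or more in every library under each alternative. The count of genes at least 1.5-fold lower in microglia than in Igkc-rich barcodes of sham fell from 2 to 1 (Tnfrsf17) with an Igkc cutoff of 0.1%, to 1 with a cutoff of 1%, to 1 with the mean over cells, and to 0 at a fold of 2. Against border-associated macrophages it fell from 4 to 2 (Tnfrsf17 and Plcg2) at a fold of 2, and to 0 without an upper limit on their microglia markers, an alternative chosen after seeing the data. At a lower fold cutoff 1 gene (Bank1) was apart between APOE130-149 and sham, against 0 at 1.5. Microglia of at least 3000 UMIs and UMIs scaled outside the neutrophil markers were also tried after seeing the data. The former turned Lyn in the sham microglia highest in neutrophil RNA from 0.897 to 1.01, and the cause was not tested. No paired analysis was possible because each group had 1 library and no replicate numbers, and for the same reason no library could be left out. Depth limits the pools of 19 to 48 border-associated macrophages and monocytes, where members rest on few UMIs.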

Other observations

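Ighm was also read in sorted cells outside the comparisons above. In 21 T cells of the control peptide library it gave 19 UMIs, or 114 CPM, which is 47.9% (28.8% to 74.9%) of the microglial level, while the microglia markers stood at 1.44% to 4.23%. In 9 T cells of the APOE130-149 library it gave 5 UMIs. Blnk, Bank1 and Plcg2 gave none in either T cell pool. Monocytes held Ighm at 49.1%, 66.2% and 69.0% of the microglial level, with microglia markers pooled at 4.62%, 4.04% and 5.08%. Ighm was thus read in microglia, border-associated macrophages, monocytes, neutrophils and T cells. It was not read in the 24 choroid plexus cells of the control peptide library, where 1 cell held all 5 Blnk UMIs and 10 of the 14 Lyn UMIs.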
